A study of Mus musculus with 40 samples.

Results

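The genes described here encode receptors and other proteins that bind the Fc part of antibodies, together with 2 relatives, Fcgbp and Fcrls. Members were the probes whose gene name on the array equalled Fcgr1, Fcgr2b, Fcgr3, Fcgr4, Fcer1g, Fcgrt, Fcgbp or Fcrls, which gave 8 genes with 1 probe each, of 36362 genes named on the array. Gene expression was measured on 40 one-colour Agilent arrays, 4 for each of 10 groups, in cerebral cortex and cerebellum of C57Bl/6 mice. The 5 groups of each region were young wild-type mice (2 months, normal diet with 36 mg alpha-tocopherol per kg) and 4 groups of 29 months, namely wild type fed the normal diet, wild type fed an alpha-tocopherol-deficient diet, Ttpa-/- fed the deficient diet and Ttpa-/- fed a supplemented diet (600 mg per kg). Ttpa encodes the alpha-tocopherol transfer protein, which the liver needs to send vitamin E to the blood, and the null allele was present in every cell of the animal. No Ttpa-/- mice on the normal diet were measured, so against wild-type mice on that diet genotype and diet cannot be told apart.

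Fc receptors for IgG sit on microglia and other myeloid cells, where they bind antibody-coated particles. Fcgr1, Fcgr3 and Fcgr4 encode activating receptors, and each signals through the common gamma chain encoded by Fcer1g, which carries an ITAM motif. Fcgr2b encodes the inhibitory receptor, whose ITIM motif recruits the lipid phosphatase encoded by Inpp5d. Fcgrt encodes the heavy chain of the neonatal Fc receptor, which pairs with the B2m product and recycles IgG and albumin. Fcgbp encodes a large mucin-like secreted protein, and Fcrls encodes an Fc receptor-like protein that serves as a microglial marker.

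Each level below is a log2 signal relative to the 75th percentile of its array, so that 0 is the level of that percentile, and a difference of 1 between groups is 2-fold. Probes differ in how they bind, so levels of different genes are not compared. A member was called where limma gave an adjusted p under 0.05 and the fold was over 1.5. The 75th percentile intensity ranged from 365 to 925 between arrays, 51.4% to 61.4% of probes were well above background, and no member was saturated. The number of arrays, 4 a group, limits the precision. The labels do not say whether arrays of a group came from separate mice, while the methods give 4 mice a group. The Ttpa probe was well above background on 4 of 4 arrays of each wild-type cerebellar group and on 0 of 4 arrays of deficient and 1 of 4 of supplemented Ttpa-/- cerebellum. In cortex it was above background on 0 or 1 of 4 arrays in every group, which checks nothing there. All 6 cortical markers were lower in cerebellum than in cortex at 2 months, and all 6 cerebellar markers were higher.

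The arrays lay on 5 slides of 8, and each group lay wholly on 1 slide. Young and aged wild-type cortex shared a slide, as did aged wild-type cerebellum on the 2 diets and Ttpa-/- cerebellum on its 2 diets. In all other comparisons, slide and condition cannot be told apart. The 4 arrays of normally fed aged wild-type mice serve as the control in several comparisons, which therefore share them.

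The members include 4 that lie together on chromosome 1, and the sequence just before their start sites is shown because these 4 genes moved together with age. The lines give the 100 bases before the first start listed by RefSeq for GRCm38.p6, with the hexamer TTCCTC or its reverse complement GAGGAA, the core of a site of the myeloid factor PU.1, in capitals. Fcgr1, on chromosome 3, is shown beside them.
Fcgr2b, chr1:170976072-170976171, minus strand: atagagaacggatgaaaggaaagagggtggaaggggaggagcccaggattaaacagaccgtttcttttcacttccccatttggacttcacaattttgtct
Fcgr4, chr1:171018826-171018925, plus strand: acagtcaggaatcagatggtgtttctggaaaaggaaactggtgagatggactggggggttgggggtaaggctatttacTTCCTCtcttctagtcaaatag
Fcgr3, chr1:171059404-171059503, minus strand: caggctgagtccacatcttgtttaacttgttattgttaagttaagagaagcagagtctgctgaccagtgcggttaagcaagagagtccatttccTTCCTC
Fcer1g, chr1:171234350-171234449, minus strand: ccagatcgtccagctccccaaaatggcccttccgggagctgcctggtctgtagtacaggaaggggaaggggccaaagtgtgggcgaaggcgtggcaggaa
Fcgr1, chr3:96293970-96294069, minus strand: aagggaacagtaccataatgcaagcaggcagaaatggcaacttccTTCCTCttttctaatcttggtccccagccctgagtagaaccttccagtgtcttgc
Over 250 bases before the start, the hexamer began 55 bases before the start of Fcgr1, 6 before that of Fcgr3, 22 before that of Fcgr4 and 144 before that of Fcrls. It was not found in the windows of Fcgr2b, Fcer1g, Fcgrt and Fcgbp. Of all 32851 start windows of the same length, 23.3% held it. The hexamer was picked after these sequences had been read, and a match is a description, not a site.

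The probes of 3 members are shown, of Fcgr3, which was called with age in both regions, of Fcgrt, which was called in neither, and of Fcgbp, which was too dim to be tested with age. Each is 60 bases long, with its position on mm9 as the array annotation gives it.
Fcgr3, chr1:172984129-172984188, minus strand: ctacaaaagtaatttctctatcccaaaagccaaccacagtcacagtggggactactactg
Fcgrt, chr7:52350556-52350615, minus strand: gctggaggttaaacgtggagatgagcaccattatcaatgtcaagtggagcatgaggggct
Fcgbp, chr7:28905517-28905576, plus strand: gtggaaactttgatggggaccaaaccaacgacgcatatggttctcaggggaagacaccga
Mouse Fcgr2b and Fcgr3 encode similar outer domains, and cross-hybridization between their probes was not tested. The Fcgr2b probe was printed in 10 spots on each array, whose median SD was 0.13 on the log2 scale, while the others had 1 spot.

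**Figure D1:**
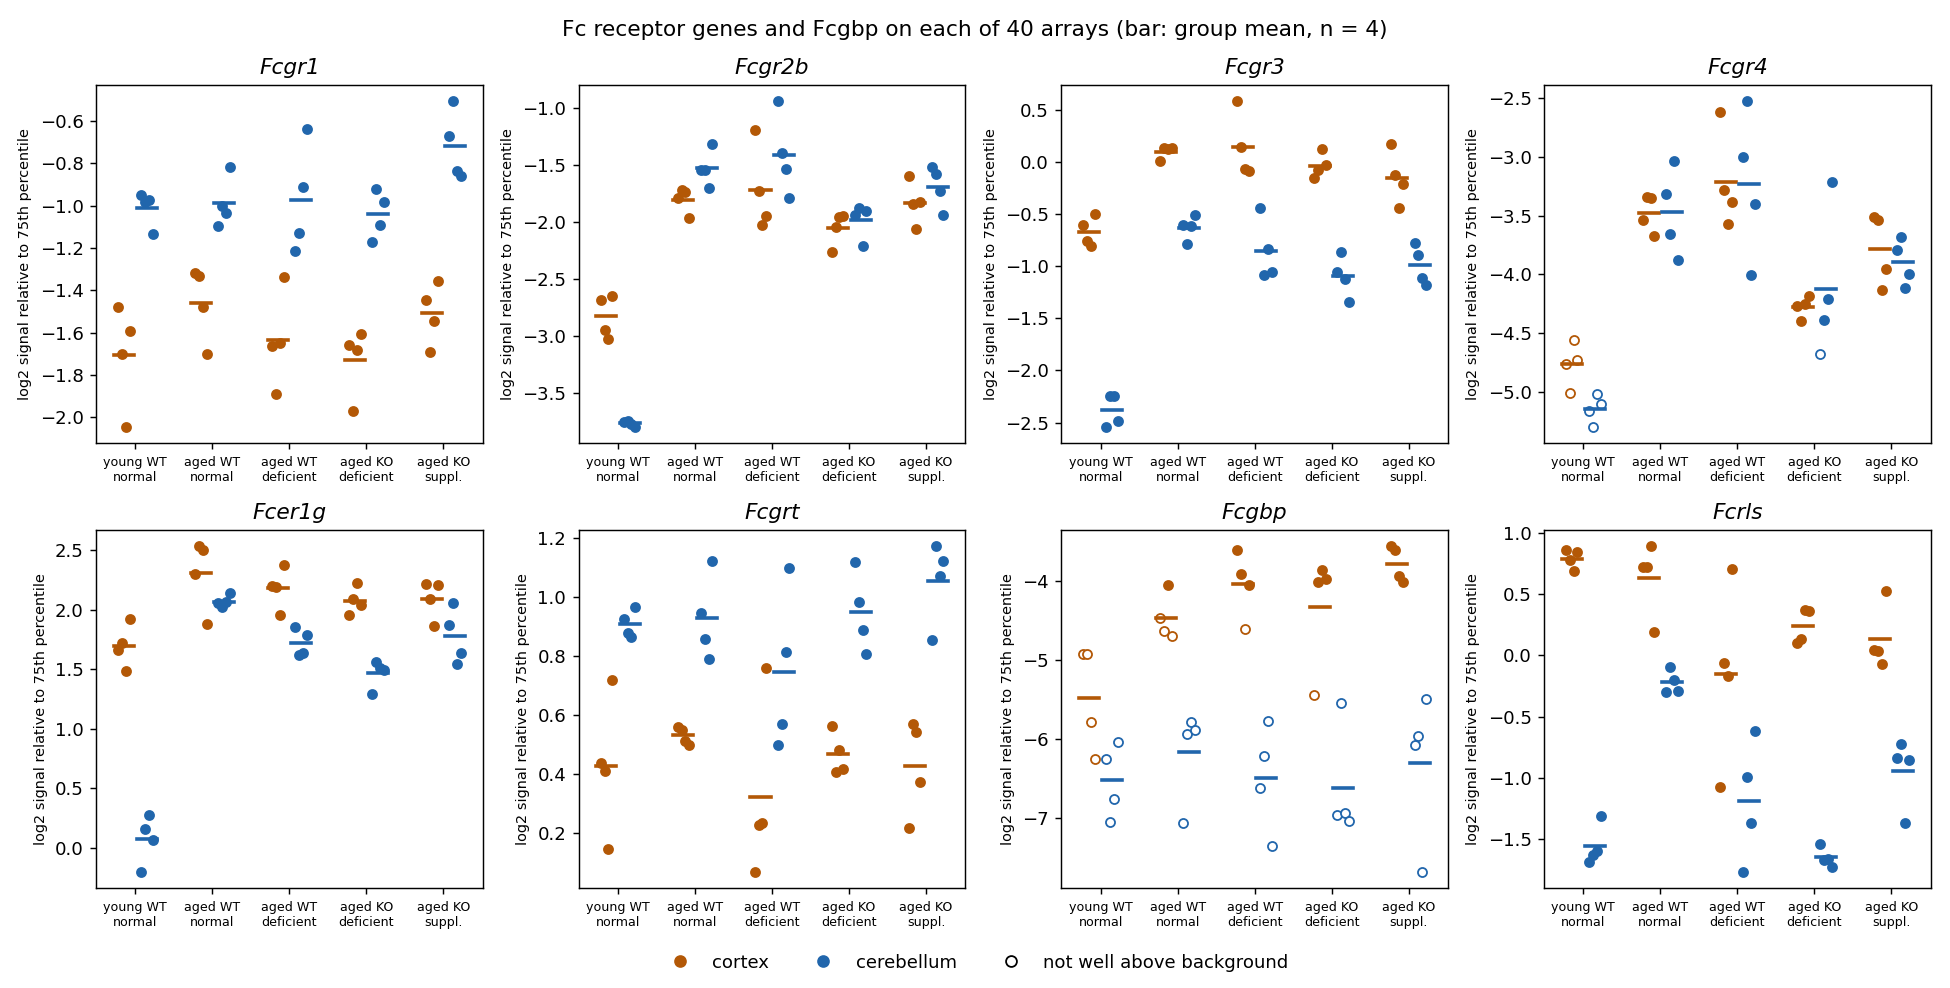
Log2 signal relative to the 75th percentile of the array (vertical axis) for each member in 5 groups, with 4 arrays a group in cortex (orange) and cerebellum (blue). Bars are group means, and open points were not well above background. Fcgr2b, Fcgr3 and Fcer1g were lowest in the young cerebellum, and Fcgr4 was not well above background in either young group.

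The first question was how the Fc receptors differed between 2 and 29 months in wild-type mice on the normal diet. In cortex 4 of 7 tested members were higher with age, the inhibitory receptor Fcgr2b, the activating receptors Fcgr3 and Fcgr4 and the signalling chain Fcer1g, and none was lower. Of all 28043 probes tested, 1.59% were called higher. In cerebellum 5 of 7 were higher, the same 4 and Fcrls, beside 3.99% of 30627 probes. The activating receptor Fcgr1 and the neonatal receptor Fcgrt were called in neither region. Fcgbp was not tested in either region, since it was not well above background on all 4 arrays of a group.

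Fcgr2b, the inhibitory receptor, read -2.69, -2.94, -3.02 and -2.65 in young cortex and -1.79, -1.72, -1.74 and -1.97 in aged cortex. In cerebellum it read -3.75, -3.74, -3.77 and -3.79 at 2 months and -1.55, -1.54, -1.71 and -1.32 at 29 months. In both regions all aged arrays were above all young ones, and the young cerebellum was lowest. The log2 change was 1.02 (SE 0.15, adjusted p = 4.12e-05) in cortex and 2.23 (SE 0.15, adjusted p = 1.01e-12) in cerebellum, or 2.03-fold and 4.71-fold. The cortical call was lost in 1 of 11 alternative settings.

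Fcgr3, an activating low-affinity receptor, read -0.61, -0.76, -0.81 and -0.50 in young cortex against 0.00, 0.13, 0.12 and 0.13 in aged cortex. In cerebellum the arrays read -2.54, -2.25, -2.25 and -2.48 when young and -0.61, -0.79, -0.62 and -0.51 when aged. Again the age groups did not overlap in either region. The change was 0.77 (SE 0.14, adjusted p = 0.000845) in cortex and 1.75 (SE 0.14, adjusted p = 7.64e-11) in cerebellum. Here too 1 of 11 alternative settings lost the cortical call.

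Fcer1g, the chain through which the activating receptors signal, read 1.66, 1.72, 1.48 and 1.92 in young and 2.30, 2.53, 2.51 and 1.88 in aged cortex. One aged array, replicate 4, lay below the highest young array, so the groups overlapped, and an exact two-sided permutation test gave p = 0.0571. The change in cortex was 0.61 (SE 0.13, adjusted p = 0.00316), close to the fold threshold, and it was not called without young replicate 3 or without aged replicate 2 or 3, where it fell as low as 0.53. In cerebellum Fcer1g read -0.20, 0.16, 0.27 and 0.07 at 2 months and 2.05, 2.02, 2.06 and 2.14 at 29 months. There the groups were far apart, and the change was 2.00 (SE 0.13, adjusted p = 2.88e-13), or 3.99-fold.

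Fcgr4, an activating receptor, was well above background on 0 of 4 young and 4 of 4 aged arrays in each region. It read -3.54, -3.34, -3.35 and -3.67 in aged cortex and -3.32, -3.66, -3.03 and -3.88 in aged cerebellum. Against the lowest signal well above background it was at least 1.94-fold higher in aged cortex (adjusted p = 0.00157) and at least 2.47-fold higher in aged cerebellum (adjusted p = 1.53e-05). With normexp background correction it was called in neither region, with changes of 0.27 and 0.58.

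Fcrls, the microglial Fc receptor-like gene, read 0.86, 0.78, 0.69 and 0.84 in young and 0.72, 0.73, 0.89 and 0.19 in aged cortex. The groups overlapped, with a change of -0.16 (SE 0.23, adjusted p = 0.841). In cerebellum it read -1.69, -1.63, -1.60 and -1.31 at 2 months and -0.30, -0.10, -0.20 and -0.29 at 29 months, which did not overlap, with a change of 1.34 (SE 0.23, adjusted p = 0.000109).

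Fcgr1, the high-affinity receptor, ranged from -2.05 to -1.48 in young and from -1.70 to -1.32 in aged cortex. Its change was 0.25 (SE 0.13, adjusted p = 0.376) there and 0.02 (SE 0.13, adjusted p = 0.962) in cerebellum. Fcgrt changed by 0.10 (SE 0.13, adjusted p = 0.804) in cortex and by 0.02 (SE 0.13, adjusted p = 0.964) in cerebellum. For both genes the age groups overlapped in both regions. Across the 10 group means Fcgr1 correlated with Fcgr3 at r = -0.65, and within the 5 cortical and 5 cerebellar groups at 0.42 and 0.22. Whether the 1 probe of Fcgr1 reports the transcript of the receptor was not tested.

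Fcgbp was picked by the study on these samples, so its values are not independent evidence. It was well above background on 0 of 4 young and 1 of 4 aged cortical arrays, and on no cerebellar array of any group. The young cortical arrays read -4.93, -4.93, -5.79 and -6.26 and the aged ones -4.48, -4.64, -4.06 and -4.70. The groups did not overlap, and an exact two-sided permutation test gave p = 0.0286, the smallest that 4 against 4 arrays allow, but all arrays except aged replicate 3 gave only a bound.

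**Figure D2:**
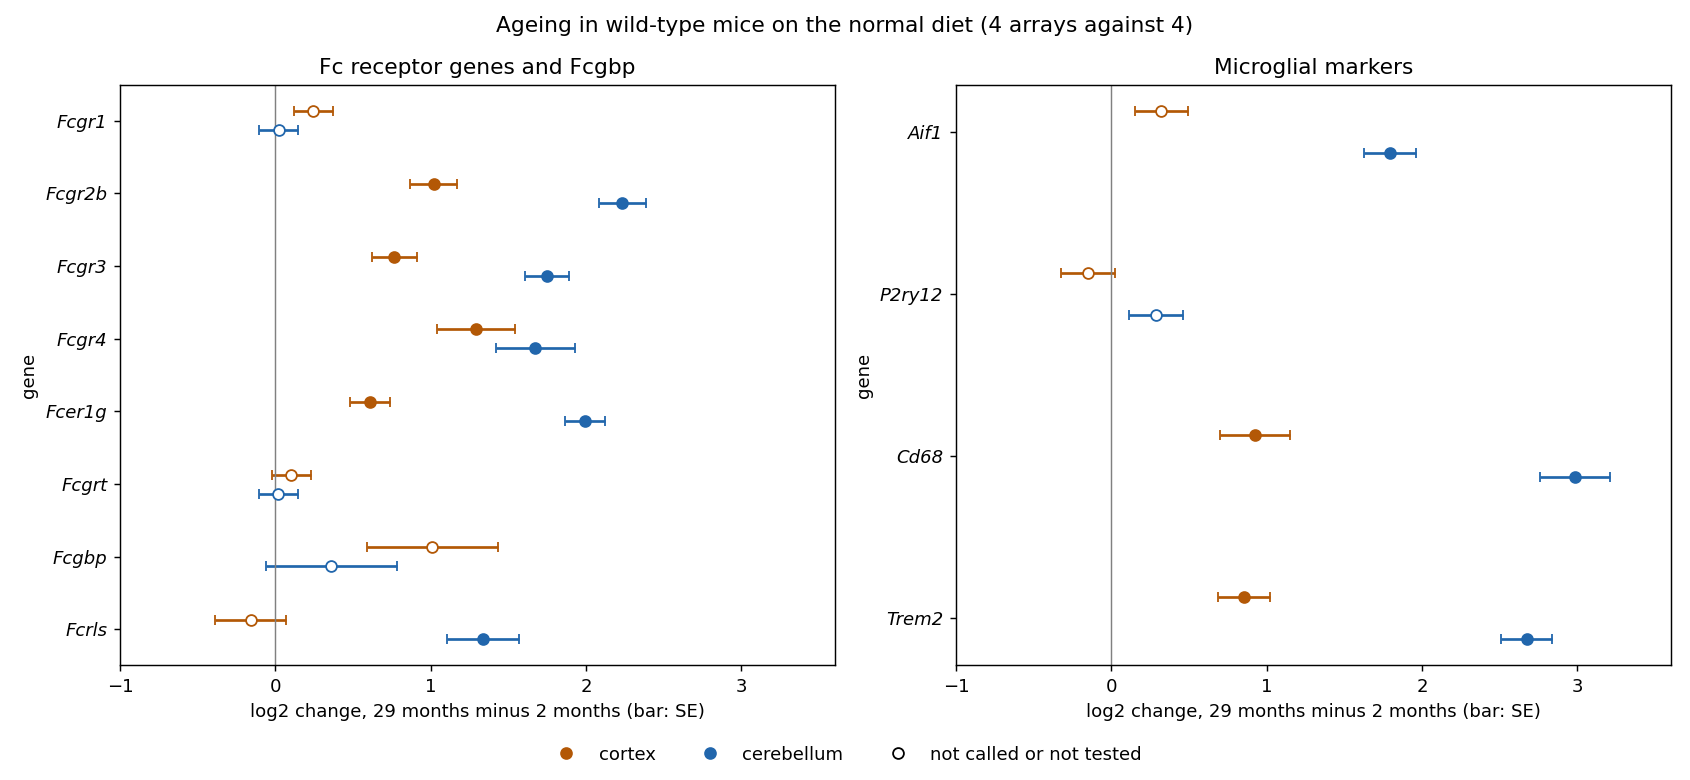
Log2 change from 2 to 29 months (horizontal axis, bars SE) in cortex (orange) and cerebellum (blue) for the members on the left and 4 of the microglial markers, those named in the text with 1 probe, on the right. Open points were not called or not tested. Fcgr2b changed by 1.02 in cortex and by 2.23 in cerebellum, while Fcgr1 and Fcgrt lay near 0.

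The ageing changes of the 2 regions were then set against each other in an interaction term. The change was larger in cerebellum for 4 of 7 tested members, beside 1% of 31372 probes called in that direction. The difference was 1.21 (SE 0.21, adjusted p = 0.00104) for Fcgr2b and 0.98 (SE 0.20, adjusted p = 0.00533) for Fcgr3. For Fcer1g it was 1.39 (SE 0.18, adjusted p = 1.73e-05), and for Fcrls 1.50 (SE 0.33, adjusted p = 0.00912). It was not called for Fcgr4, at 0.38 (SE 0.36, adjusted p = 0.805), whose young arrays gave only bounds, nor for Fcgr1 at -0.22 or Fcgrt at -0.08. Young and aged cerebellum lay on different slides, so slide and age cannot be told apart in the cerebellar part of this difference.

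Microglial markers moved beside the receptors. Of 12 markers 2 were higher in aged cortex, Cd68 by 0.93 and Trem2 by 0.85. In aged cerebellum 8 were higher, including Cd68 by 2.99 (above background on 2 of 4 young arrays), Trem2 by 2.67 and Aif1 by 1.79. Csf1r was also among them by its brightest probe, at 0.79, while its dimmer probes changed by 0.09, which was not called, and by 0.75. P2ry12, a marker of resting microglia, changed by -0.15 in cortex and by 0.29 in cerebellum and was called in neither. Itgam and Siglech also had several probes that disagreed. The brightest probes of Itgam and Siglech together supplied 67.0% to 92.8% of the summed level. They did not move with age in cerebellum, at -0.03 for Itgam and 0.02 for Siglech. A dimmer Itgam probe rose by 0.89 there, and a dimmer Siglech probe fell by 0.63. The 10 other markers, a choice made after their values were seen, summed to 6083 to 7783 percent of the 75th percentile in young and 6597 to 7859 in aged cortex, and to 1741 to 2423 in young and 4628 to 5381 in aged cerebellum. In tissue, more cells of a type and more RNA per cell cannot be told apart.

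Some markers of other cells that carry Fc receptors moved as well, and so did some of red cells and choroid plexus. Of 7 border macrophage markers on the array, 2 were higher in aged cortex (Ms4a7 by 0.97 and F13a1 by 0.66) and 2 in aged cerebellum (Ms4a7 by 2.22 and Pf4 by 0.91), while Cd163 was above background on no array of these 2 aged groups. Their summed level was 210 to 244 percent of the 75th percentile in young and 259 to 325 in aged cortex, and 147 to 193 against 288 to 377 in cerebellum. Of 7 monocyte and neutrophil markers, 2 were higher in aged cortex (S100a8 by 3.26 and S100a9 by 3.29) and 2 in aged cerebellum (Retnlg by 2.40 and Mpo by 2.51). Their summed level was 35.0 to 65.7 against 178 to 259 in cortex and 151 to 503 against 542 to 5450 in cerebellum. S100a8 and S100a9 were above background on 2 and 3 of 4 young cortical arrays, and Retnlg on 2 of 4 young cerebellar arrays. Of 5 B and plasma cell markers on the array none was called in cortex, and 1, Igj, was higher in cerebellum. Their summed level was 33.1 to 38.6 against 35.7 to 44.0 in cortex and 20.3 to 28.6 against 29.8 to 126 in cerebellum. Of 2 T and NK cell markers tested in each region none was called. Of 3 red cell markers none was called in cortex and 2 were higher in cerebellum, Hbb-b1 by 2.58 and Alas2 by 2.67, and their summed level was 43.4 to 197 against 469 to 1106 in cortex and 306 to 746 against 1188 to 8437 in cerebellum. Of 9 choroid plexus markers 4 were lower in aged cerebellum, where one young array reached 25263 in summed level against at most 651 on the aged ones. The part of these cells in the receptor changes was not tested.

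The signalling genes downstream of the receptors were followed through a list of 24, of which 23 had a probe. In aged cortex 4 of 18 tested were higher and none lower, with a median change of 0.33 against -0.03 over all probes tested. Lat2, a linker, rose by 1.1, from a level above background on 1 of 4 young arrays. Tyrobp, an ITAM adaptor related in structure to the gamma chain, rose by 0.78. Plcg2, a phospholipase, rose by 0.67, and the kinase Btk rose by 0.59. In aged cerebellum 10 of 20 were higher and none lower, with a median of 0.65 against -0.01. Tyrobp rose by 2.49, the phosphatase Ptpn6 by 1.77 and Btk by 1.77, the last from a level above background on 1 of 4 young arrays. Lat2 was above background on no young and 4 of 4 aged cerebellar arrays, and was at least 3.26-fold higher (adjusted p = 1.4e-07). Inpp5d, the lipid phosphatase recruited by the inhibitory receptor, changed by 0.01 in cortex and rose by 1.17 in cerebellum. The widely expressed adaptor Grb2 changed by -0.07 and -0.04, and was called in neither region.

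For 6 of 20 signalling genes the ageing change was larger in cerebellum than in cortex, with Tyrobp at 1.71, Ptpn6 at 1.29 and Btk at 1.17 among them. Among other proteins that bind Fc or partner such receptors, Trim21, a cytosolic antibody receptor, rose by 0.82 in cortex and 0.99 in cerebellum. B2m, the light chain of the neonatal receptor, rose by 0.62 and 1.21. These were 2 of 5 tested in cortex and 2 of 6 in cerebellum. Of 15 immunoglobulin chain symbols 2 were on the array, and Igj, the joining chain of secreted antibody, was above background on 0 of 4 young and 4 of 4 aged cerebellar arrays. It was at least 4.25-fold higher there with age (adjusted p = 6.99e-06) and was not tested in cortex.

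A stretch of chromosome 1 holds 4 members, with 258278 bases between the starts of Fcgr2b and Fcer1g on GRCm38.p6, in the order Fcgr2b, Fcgr4, Fcgr3, Fcer1g. All 4 were called higher with age in both regions. In cortex Fcgr2b, Fcgr3 and Fcgr4 each lost the call in 1 of 11 alternative settings, and Fcer1g in 3. In this stretch 6 other genes had a probe named by symbol, and 5 were tested in each region. None of these was called in either direction, in cortex or in cerebellum. Sdhc, a mitochondrial enzyme subunit, changed by -0.03 and -0.12, and Apoa2, an apolipoprotein gene next to Fcer1g, by 0.07 and 0.33. Tomm40l fell by 0.31 in cerebellum (adjusted p = 0.0132), under the fold threshold.

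**Figure D3:**
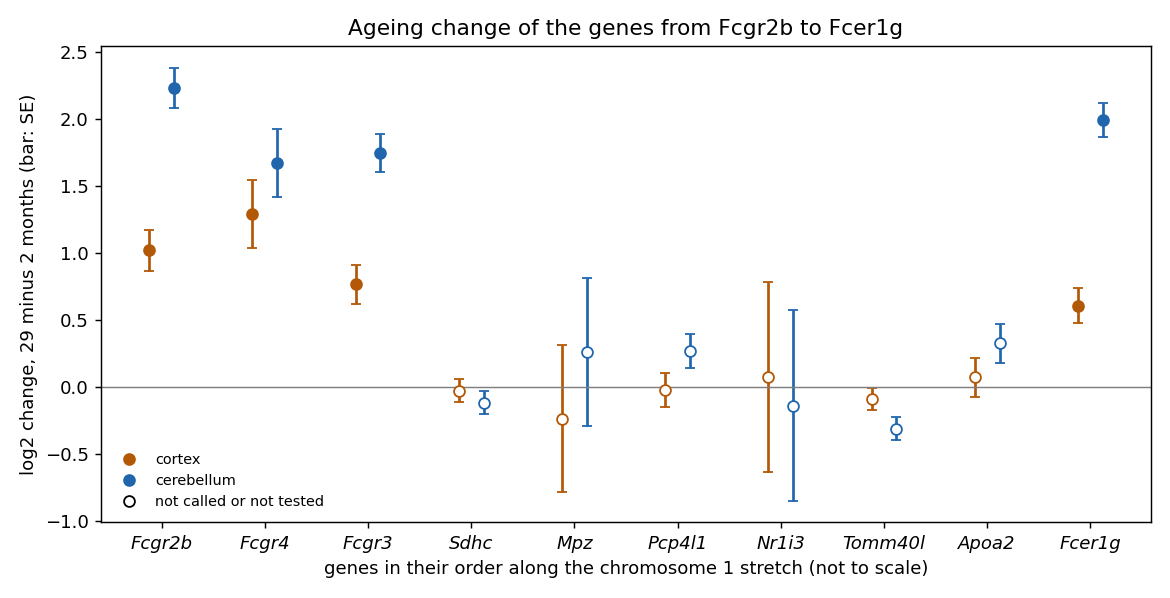
Log2 change from 2 to 29 months (vertical axis, bars SE) for the genes with a probe between Fcgr2b and Fcer1g, in chromosome order and not to scale. Filled points, the 4 Fc receptor genes, were called, while the 6 genes from Sdhc to Apoa2 were not.

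The regions were next compared within an age. At 2 months, 5 of 6 tested members differed between cerebellum and cortex, 1 higher and 4 lower, where 38.4% of 30203 probes were called in either direction. Fcrls was lower in cerebellum, with a change of -2.35 (SE 0.23, adjusted p = 1.44e-10). Fcgr3 followed at -1.71, Fcer1g at -1.62 and Fcgr2b at -0.94, while Fcgr1 was higher, at 0.69 (SE 0.13, adjusted p = 2.01e-05). For these 5 the arrays of the regions did not overlap. Fcgr1 was not called without young cortex replicate 3. Fcgrt was higher in cerebellum by 0.48 (adjusted p = 0.00145), under the fold threshold. Of the 12 microglial markers 10 were lower in young cerebellum too.

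At 29 months fewer members differed. Fcgr3 was lower in cerebellum, at -0.73 (SE 0.14, adjusted p = 5.57e-05), and so was Fcrls, at -0.85 (SE 0.23, adjusted p = 0.00208), 2 of 7 tested where 15.8% of 30859 probes were called lower. Fcgr2b (0.27, adjusted p = 0.123) and Fcer1g (-0.24, adjusted p = 0.114) were not called, and Fcgr4 stood at 0.00 (SE 0.25, adjusted p = 0.996). Fcgr1 and Fcgrt were higher in cerebellum by 0.47 and 0.40, under the fold threshold. Fcgbp was above background on 1 of 4 aged cortical and 0 of 4 aged cerebellar arrays, and was not tested. Of 23 signalling genes on the array, 20 were tested at 29 months, with 5 higher in cerebellum and 4 lower, where 17.8% of all probes were called higher and 15.8% lower. Among them Prkcd stood at 2.52 and Lyn at 2.13, and Lat, above background on no aged cortical array, was at least 2.09-fold higher.

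Genotype and diet were compared at 29 months. In cortex of Ttpa-/- mice on the deficient diet against wild-type mice on the normal diet, 1 of 7 tested members was called, Fcgr4, which was lower, beside 1.6% of 28913 probes called lower. Fcgr4 read -4.27, -4.39, -4.25 and -4.19 in Ttpa-/- cortex, below the 4 wild-type arrays, and well above background on all 8. The change was -0.80 (SE 0.25, adjusted p = 0.0247), and the call was lost on leaving out wild-type replicate 2 or 3, or any of Ttpa-/- replicates 1 to 3, with values from -0.87 to -0.76. The 6 other tested members had changes from -0.39 for Fcrls to -0.06 for Fcgrt and were not called. Fcgbp was above background on 3 of 4 Ttpa-/- and 1 of 4 wild-type arrays and was not tested. Trem2 was the 1 microglial marker of 12 called, and it was lower. Of 19 signalling genes tested only Btk was called, at -0.77 (adjusted p = 0.0023). Of 5 other proteins tested that bind Fc or partner such receptors 2 were called in opposite directions. Fcrl5 was higher in Ttpa-/- cortex (4.06 against 3.14, limma adjusted p = 0.00225) and Pigr was lower (5.31 against 6.49, limma adjusted p = 0.00536). In cerebellum none of 6 was called.

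In cerebellum 2 of 7 tested members were lower in Ttpa-/- mice on the deficient diet, beside 1.79% of 30604 probes. Fcrls read -1.54, -1.67, -1.67 and -1.73, below every aged wild-type array on the normal diet and near the young level, with a change of -1.43 (SE 0.23, adjusted p = 0.000108), or 2.70-fold. Fcer1g read 1.30, 1.56, 1.51 and 1.50, also below every wild-type array, with a change of -0.60 (SE 0.13, adjusted p = 0.0021). The Fcer1g call was lost on leaving out wild-type replicate 4 or Ttpa-/- replicate 1. Fcgr2b and Fcgr3 changed by -0.45 (adjusted p = 0.0429) and -0.47 (adjusted p = 0.0271), under the fold threshold. Fcgr4 changed by -0.65 (adjusted p = 0.0854), Fcgr1 by -0.05 and Fcgrt by 0.02. The adaptor Tyrobp was the 1 signalling gene of 20 called, at -0.80 (adjusted p = 0.000186), and Aif1 was the 1 microglial marker of 12 called, at -0.59. Some markers of other cells that carry Fc receptors were lower too, while others were not. Of 6 border macrophage markers tested 2 were called lower, Ms4a7 at -0.75 and Cbr2 at -0.62, and their summed level was 202 to 251 percent of the 75th percentile in Ttpa-/- against 288 to 377 in wild-type cerebellum. Of 3 B and plasma cell markers tested 2 were lower, Igj at -1.63 and Cd79b, at least 3.03-fold, the latter above background on no Ttpa-/- array. Of 6 monocyte and neutrophil markers tested none was called, but their median change was -1.69. The summed level of that list was 326 to 656 against 542 to 5450. None of 2 T and NK cell markers tested was called, but the summed level of that list was higher, 386 to 434 against 285 to 347. The part of these cells in the Fcrls and Fcer1g changes was not tested.

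The Fcrls change differed between the regions by -1.04 (SE 0.33, adjusted p = 0.0472), the 1 member of 7 so called, where 1.91% of 31560 probes were called lower. It was called in 2 of 16 fits that left out 1 array, with values from -1.13 to -0.89.

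The deficient diet was compared with the normal diet in wild-type mice. In cortex none of 7 tested members was called, where 0.223% of 28254 probes were. At an unadjusted p under 0.05 Fcrls stood alone, at -0.78 (SE 0.23, adjusted p = 0.0994), and its arrays read -1.08, -0.06, -0.17 and 0.71. In cerebellum Fcrls was the 1 member of 7 called, lower, beside 0.82% of 30990 probes, and this pair of groups shared a slide. The deficient arrays ranged from -1.77 to -0.62, below the 4 arrays on the normal diet, with a change of -0.97 (SE 0.23, adjusted p = 0.018). It was not called without normal-diet replicate 1 or deficient replicate 1, where it moved to between -1.16 and -0.77. Fcer1g arrays did not overlap either, at -0.35 (SE 0.13, adjusted p = 0.109). The other members changed by -0.22 to 0.24 in cerebellum and by -0.21 to 0.26 in cortex, Fcgbp aside. Wild-type deficient replicate 1 was highest of its group for Fcgr2b and Fcgr3 and lowest for Fcrls in both regions, with Fcgr2b at -1.19 in cortex and -0.94 in cerebellum and Fcgr3 at 0.58 and -0.44.

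Supplemented Ttpa-/- mice were compared with wild-type mice on the normal diet. In cortex none of 8 tested members was called, where 0.092% of 28268 probes were. Fcgbp read -3.56, -3.62, -3.94 and -4.02, was above background on 4 of 4 arrays, and stood at 0.68 against the wild-type arrays (SE 0.42, limma adjusted p = 0.749). Its arrays did not overlap those of wild-type mice, of which 1 of 4 was above background (exact two-sided permutation p = 0.0286). At an unadjusted p under 0.05 by limma only Fcrls stood out, at -0.50 (adjusted p = 0.538). In cerebellum Fcrls was lower, at -0.73 (SE 0.23, adjusted p = 0.0314), the 1 member of 7 called, beside 1.57% of 31265 probes. That call was lost on leaving out any of wild-type replicates 1 to 3 or supplemented replicates 3 and 4, with values from -0.80 to -0.59. Of 3 B and plasma cell markers tested 2 were lower there too, Igj at -1.95 and Cd79b at -1.35, and their part was not tested. In the deficient wild-type group and both Ttpa-/- groups, every cerebellar Fcrls array lay below the 4 wild-type arrays on the normal diet, which all 3 comparisons share.

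Within Ttpa-/- mice the deficient diet was compared with the supplemented one. No member was called in cortex (8 tested, 3.31% of 29077 probes called) or in cerebellum (7 tested, 0.343% of 30643 probes called). Fcgr4 was apart in cortex, with the 4 deficient arrays below the supplemented ones at -0.49 (SE 0.25, adjusted p = 0.198). At an unadjusted p under 0.05 by limma there were 0 members in cortex and 3 in cerebellum, Fcrls, Fcgr1 and Fcer1g. In cerebellum, on a shared slide, Fcrls was apart at -0.71 (SE 0.23, adjusted p = 0.159), and so was Fcgr1 at -0.32 (SE 0.13, adjusted p = 0.279). Lyn was the 1 signalling gene of 19 called in cortex, higher on the deficient diet, at least 1.32-fold, and above background on no supplemented array, and none of 19 was called in cerebellum. Of 6 other proteins tested that bind Fc or partner such receptors only Fcrl5 was called in cortex, higher on the deficient diet (4.06 against 3.22). None of 6 was called in cerebellum.

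On the deficient diet the genotypes were compared with each other. Fcgr4 was lower in Ttpa-/- mice in both regions, the 1 member of 7 called in each. In cortex the change was -1.06 (SE 0.25, adjusted p = 0.00678), beside 1.53% of 29061 probes called lower. In cerebellum it was -0.89 (SE 0.25, adjusted p = 0.0183), beside 1.92% of 30552 probes. There the groups overlapped, since Ttpa-/- replicate 4 read -3.21 and wild-type replicate 3 read -4.00, and 1 Ttpa-/- array was not above background. Of 11 alternative settings, 7 lost the cerebellar call and 3 the cortical one, with normexp background correction, for example, at -0.40 and -0.41. With array weights Fcgr2b was called in cerebellum in place of Fcgr4. The cerebellar value was not called without either of wild-type replicates 1 and 2 or Ttpa-/- replicates 1 and 2, and ranged from -1.19 to -0.65. Fcgr2b in cerebellum stood at -0.57 (adjusted p = 0.0122), 1.48-fold and so just under the threshold. The other tested members had changes from -0.46 to 0.39 and were not called. Of 19 signalling genes tested in each region only Btk was called, lower in cortex. P2ry12 was the 1 microglial marker of 12 called in cerebellum, higher, and none of 12 was called in cortex. Of 2 B and plasma cell markers tested in cerebellum Cd79a was higher and Cd79b lower. Among other proteins that bind Fc or partner such receptors, Fcrl5 was higher in both regions and Fcrlb lower in cerebellum, of 5 tested in cortex and 6 in cerebellum.

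**Figure D4:**
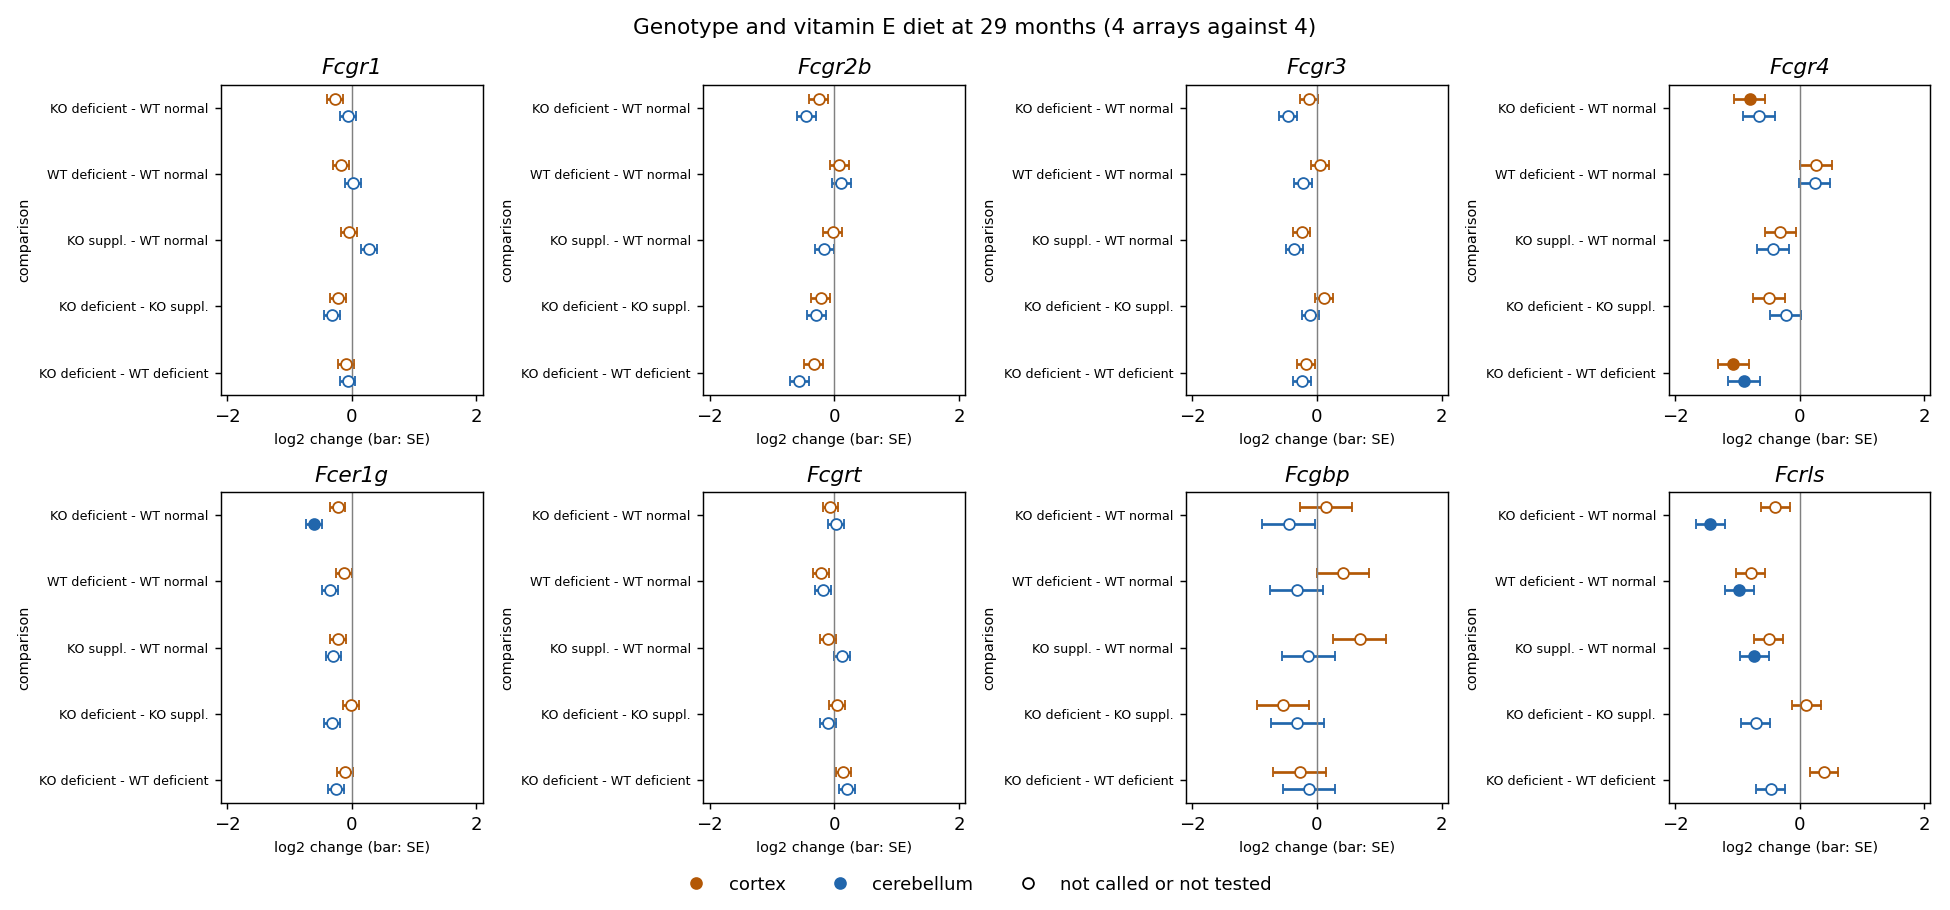
Log2 change in 5 comparisons at 29 months (horizontal axis, bars SE) for each member in cortex (orange) and cerebellum (blue). Open points were not called or not tested. Fcgr4 was lower in Ttpa-/- than in wild-type mice on the deficient diet, at -1.06 in cortex, and cerebellar Fcrls was lower than in wild-type mice on the normal diet in 3 comparisons.

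Across the 10 group means the members fell into different orders. Fcer1g was highest in aged wild-type cortex on the normal diet (2.31 ± 0.30, SD, n = 4) and lowest in young cerebellum (0.07), and all neighbours in its order overlapped except the young cerebellum, which lay below the rest. Fcgr2b was highest in deficient wild-type cerebellum (-1.42), and only young cortex (-2.82) and young cerebellum (-3.76) lay apart from the group next above them. For Fcgr1 the 5 cerebellar groups, from -0.72 to -1.04, lay above the 5 cortical groups, from -1.46 to -1.73, and within a region neighbours overlapped. Fcgrt had the same split, from 1.05 to 0.74 in cerebellum and 0.53 to 0.32 in cortex, with every pair of neighbours overlapping. Fcrls ran from 0.79 in young cortex to -1.65 in deficient Ttpa-/- cerebellum.

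The genes most like each member were those with the highest Pearson correlation over the 10 group means, among 14042 symbols, and they are given as a description. For Fcer1g these were C1qb, Glipr1 and Irf8, with r of 0.991, 0.990 and 0.988. For Fcgr3 they were Irf5, Tmem176b and Slc7a7 (0.989, 0.986 and 0.986), and for Fcgr2b Bcl2a1d, Cd52 and Cd68 (0.987, 0.987 and 0.986). For Fcgr4 they were Paqr5, 4930486L24Rik and Arhgef5 (0.981, 0.972 and 0.970), and for Fcrls Gm4130, Tnfrsf13b and Lipa (0.978, 0.976 and 0.957). For Fcgr1 they were Zfp800, Krcc1 and Ttc28 (0.983, 0.983 and 0.982), for Fcgrt Sfxn5, Polr3b and Cdk5rap2 (0.985, 0.982 and 0.982), and for Fcgbp Sult1c2, Filip1l and Angptl1 (0.984, 0.984 and 0.983). All points share region, slide and age, so high values were common.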

How the data were processed

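Agilent Feature Extraction processed signals, background-subtracted intensities per the file headers, deposited unnormalized, were taken from each of 40 one-colour arrays. The labels name Feature Extraction 10.1.1.1, while the file headers give another version. Control spots and flagged outlier spots (95 to 148 an array) were left out, spots of a probe were averaged, and log2 values were scaled to each array's 75th percentile. The authors' deposited log2 values differed from these, after centring each probe, by a median of 0.00085.

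A linear model with 1 coefficient per group was fitted over all arrays (limma 3.58.1). P-values were adjusted by Benjamini-Hochberg over probes that passed the scanner's background test on every array of at least 1 compared group. The fit was tested on simulated data. The members and lists were chosen with earlier results of these data known. The gene lists were signalling genes, Fc-binding proteins and immunoglobulin chains. Marker lists covered microglia, border macrophages, monocytes and neutrophils, B and plasma cells, T and NK cells, and mast cells. Others covered endothelium, red cells, choroid plexus, cortex and cerebellum. All members, the 3 most similar genes, and up to 4 called list genes a comparison are named. A gene with several probes is represented by its brightest. Same-numbered arrays were correlated above 0.1 in every pair for the 2 diets of Ttpa-/- cortex (lowest r = 0.102) and for the 2 regions of deficient Ttpa-/- mice (lowest r = 0.138), not in the other comparisons. The labels give no shared animal, and the replicate block changed no count. Some list genes are not reported here.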

Additional observations from a re-analysis of the deposited data

Results flagged for a closer look

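Among 80 sets of 4 arrays, 8 members in 10 groups, 4 held an array far from the others, where chance gives about 1 in 20. Fcgr3 in aged wild-type cortex had replicate 1 at 0.0040, below the next at 0.12. Fcgbp had replicate 1 of deficient Ttpa-/- cortex at -5.44, replicate 1 of aged wild-type cerebellum at -7.06 and replicate 2 of deficient Ttpa-/- cerebellum at -5.55, none of them well above background.

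The ageing change differed between the regions by an interaction term for Fcgr2b (1.21), Fcgr3 (0.98), Fcer1g (1.39) and Fcrls (1.50), larger in cerebellum each time. The change of deficient Ttpa-/- against wild-type mice on the normal diet differed for Fcrls (-1.04). Each of these sets groups of different slides against each other, and the part of the slide cannot be told apart.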

How the results depend on the processing

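Counts of members called are given here under the alternatives that moved them by over 1.5 times, followed by the smaller moves. Scaling to the median gave 2 in place of 4 for ageing in cortex, 0 in place of 1 for deficient Ttpa-/- against wild type in cortex and 1 in place of 2 in cerebellum, 0 for supplemented Ttpa-/- cerebellum, 0 for genotype in cerebellum and 0 for the difference of the deficient Ttpa-/- change between regions. It shifted the median of all probes by -0.18 for diet in wild-type cerebellum, 0.18 for genotype in cerebellum and 0.11 for diet in Ttpa-/- cortex. Quantile normalization gave 0 for genotype in cerebellum. Normexp background correction gave 2 for ageing in cortex, 0 for deficient Ttpa-/- cortex and 0 for genotype in cortex and in cerebellum. With no filter on dim probes supplemented Ttpa-/- cerebellum had 0, and with array weights diet in wild-type cortex had 1 (Fcrls). Fitting the compared groups alone gave 0 for diet in wild-type cerebellum and 0 for genotype in both regions. The methods' t-test, unadjusted at their threshold, gave 1 for supplemented Ttpa-/- cortex (Fcgbp), 1 for diet in Ttpa-/- cerebellum (Fcrls) and 0 for genotype in cerebellum, and after Benjamini-Hochberg 0 for diet in wild-type cerebellum and 0 for genotype in both regions. With no fold threshold there were 4 for deficient Ttpa-/- cerebellum, 2 for genotype in cerebellum and 4 for the aged regions. Smaller moves were 3 in place of 4 for ageing in cortex with the compared groups alone and with the adjusted t-test, which lost Fcer1g, 3 in place of 4 for the difference of ageing with median scaling, which lost Fcgr3, 4 in place of 5 for ageing in cerebellum (without Fcgr4) and for the young regions (without Fcgr1) with normexp, and 3 in place of 2 for deficient Ttpa-/- cerebellum with array weights (with Fcgr4). With no filter on dim probes Fcgbp was added for the young regions (6) and the aged ones (3), and with no fold threshold Fcgrt for the young regions (6). Leaving out 1 array gave 3 to 4 for ageing in cortex, 5 to 5 in cerebellum, 0 to 1 for deficient Ttpa-/- cortex, 1 to 3 in cerebellum, 0 to 1 for diet in wild-type cortex and cerebellum, 0 to 1 for supplemented Ttpa-/- cerebellum, 1 to 2 for genotype in cortex, 0 to 2 in cerebellum, and 0 to 1 for the Fcrls difference between regions. With the replicate number as a block (replicate block) every count was as reported, 4 and 5 for ageing in cortex and cerebellum and 4 for their difference. Of 298 values of called members under the other alternatives, 271 kept direction and call, 27 kept direction and lost the call, and 0 reversed. The slide as a fixed block could not be fitted, and the mean of a gene's probes changed nothing, since each member has 1. No cause of these moves was tested.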
